A study of Mus musculus with 34 samples.

Results

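Primitive endoderm is the sheet of cells that lines the fluid-filled cavity of the late mouse blastocyst. The genes followed here were 10 that mark this lineage or its products: Gata6, Gata4, Sox17, Sox7, Foxa2, Pdgfra, Dab2, Lama1, Col4a1 and Cubn. They were taken by symbol, and all 10 were found among the 49686 gene symbols of the zygote and late 2-cell tables and among the 51734 of the blastocyst table. The libraries were 34 single mouse embryos whose zygotes had been injected with mRNA for CHK1, a kinase of the DNA damage checkpoint, either wild type (WT) or carrying the R442Q change. WT embryos numbered 5 at the zygote, 4 at the late 2-cell and 7 at the blastocyst stage, and R442Q embryos 6, 5 and 7. The early embryos had no inhibitor, while all 14 blastocysts had been cultured with a Chk1 inhibitor at 30 nM. Every embryo thus received CHK1 mRNA, and the blastocysts of both genotypes share the inhibitor, so neither the injection nor the inhibitor can be separated from development here. Strain and litter are not given in the sources used here, and p-values measure the spread between these single embryos.

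Primitive endoderm and epiblast arise together in the inner cell mass, while trophectoderm forms the outer layer. FGF4 from epiblast precursors acts through FGF receptors and the MAPK pathway to keep the transcription factor GATA6 on and NANOG off in endoderm precursors. SOX17, GATA4 and later SOX7 follow GATA6, PDGFRA is the receptor for PDGF ligands on these cells, and the mature sheet lays down laminin and collagen IV and takes up protein through cubilin and the adaptor DAB2. FOXA2 appears later, in visceral endoderm. GATA4, GATA6, DAB2 and the matrix genes are also used by other cell types, so no single member defines the lineage.

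The zygote and blastocyst libraries carried the markers of their stages, while the late 2-cell libraries were mixed. Each zygote library held 7183632 to 11296522 estimated counts and each late 2-cell library 5727956 to 8916343, and the depth of the blastocysts is unknown in counts. The egg transcripts of a list of 8, such as Zp3 of the egg coat, summed to 3340 to 6410 FPKM (fragments per kilobase, scaled to library size) in zygotes and at most 6.5 in blastocysts. Trophectoderm markers summed to 53 to 102 in zygotes and to 1470 to 25335 in blastocysts. In late 2-cell embryos the egg list summed to 1244 to 6958 FPKM, and R442Q replicate 3, the highest, lay above every zygote. Transcripts of 2-cell genome activation summed to 123 to 3042 FPKM there, against 84 to 245 in zygotes. WT late 2-cell replicate 2, the lowest, lay within the zygote range. Chek1 was at 6191 ± 1410 FPKM in zygotes (SD, n = 11), 483 ± 226 in late 2-cell embryos (SD, n = 9) and 19.7 ± 7.76 in blastocysts (SD, n = 14). Its genotypes overlapped at every stage (edgeR's adjusted p 0.416 in zygotes and 0.995 in late 2-cell embryos, limma's 0.991 in blastocysts), and gene-level values do not tell WT from R442Q mRNA. R442Q blastocyst replicate 7 had 8189 genes at an FPKM of 1 or more and WT blastocyst replicate 6 had 9852, against 10714 to 12191 in the other 12 blastocysts.

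Positions are on GRCm38, and some members share sequence with neighbouring genes. Col4a1 (chr8:11198423-11312826, minus strand) encodes a collagen IV chain and starts head to head with Col4a2 (chr8:11312805-11449287, plus strand), with 22 exon bases annotated to both. Sox17 (chr1:4490931-4497354, minus strand) had 14.99% of its 50-base stretches in another annotated gene, mostly Gm37587 on the opposite strand, and Pdgfra (chr5:75152292-75198215, plus strand) had 4.93%, mostly in the antisense gene Gm42802. The share was 2.14% for Dab2 (chr15:6299788-6440712, plus strand) and 1.85% for Cubn (chr2:13276338-13491813, minus strand), and 0.68% for Gata6. It was 0 to 0.06% for Gata4 (chr14:63198922-63271692, minus strand), Sox7 (chr14:63943673-63950732, plus strand), Foxa2 (chr2:148042877-148046969, minus strand), Lama1 (chr17:67697259-67822647, plus strand) and Col4a1. A Nextera library does not mark strand, so reads from the shared stretches of Sox17, Pdgfra and their opposite-strand partners cannot be told apart.

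RefSeq's promoter table (GRCm38.p6) held 5 of the 10 members. Upstream sequence is shown for Pdgfra and Cubn, whose levels varied together between blastocysts, and for Dab2, which was lower where Pdgfra was higher. Each runs 5′ to 3′ on the gene's own strand over 240 bases, from 250 to 11 bases before the start, at chr5:75152001-75152240, chr2:13491887-13492126 and chr15:6299539-6299778. Capitals mark a match to a GATA factor motif.
Pdgfra: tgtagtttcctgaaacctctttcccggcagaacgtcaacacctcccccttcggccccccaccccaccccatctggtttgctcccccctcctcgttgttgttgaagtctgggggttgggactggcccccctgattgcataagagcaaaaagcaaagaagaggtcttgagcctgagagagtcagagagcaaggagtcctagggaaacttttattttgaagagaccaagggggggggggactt
Cubn: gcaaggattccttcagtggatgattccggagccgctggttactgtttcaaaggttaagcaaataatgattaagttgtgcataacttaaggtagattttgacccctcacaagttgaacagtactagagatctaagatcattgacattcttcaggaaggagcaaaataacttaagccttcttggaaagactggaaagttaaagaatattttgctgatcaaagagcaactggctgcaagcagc
Dab2: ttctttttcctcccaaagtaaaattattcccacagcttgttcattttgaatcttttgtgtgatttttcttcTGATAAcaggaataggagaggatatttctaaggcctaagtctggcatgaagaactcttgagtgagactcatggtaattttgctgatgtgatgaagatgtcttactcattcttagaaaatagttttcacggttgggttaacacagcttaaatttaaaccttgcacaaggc
The GATA letters searched, on both strands, were AGATAA or AGATAG and also TGATAA or TGATAG, and 26.6% of 32817 RefSeq promoters held at least 1 of them in the 250 bases before the start. The Dab2 stretch shown held TGATAA, beginning 179 bases before its start, and a second Dab2 start in the table, with its window at chr15:6386498-6386797, held none of the 4, while neither the Pdgfra nor the Cubn stretch held any of the 4. None of these stretches held the SOX letters AACAAT or ACAATA, which 14.2% of all promoters held. These matches describe letters in a window and not bound sites.

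Dab2 was abundant in zygotes and blastocysts with less between, Gata6 was higher in the blastocyst table than in the early ones, and the members other than Dab2 and Gata4 averaged at most 2.71 FPKM early over both genotypes. Dab2, an adaptor for endocytosis, had the highest mean per transcript length at every stage when both genotypes were averaged, with 112 ± 9.23 FPKM in zygotes (SD, n = 11), 15.7 ± 7.38 in late 2-cell embryos (SD, n = 9) and 385 ± 198 in blastocysts (SD, n = 14). Gata6 was at 0.310 ± 0.288 FPKM in zygotes, 0.858 ± 0.987 in late 2-cell embryos and 17.6 ± 7.37 in blastocysts (SD, same n). The lowest blastocyst, at 6.96, lay above the highest early embryo, at 3.09.

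Gata4, a GATA factor downstream of Gata6, came next to Dab2 in both early tables when both genotypes were averaged, with 4.74 ± 1.42 FPKM in zygotes, 11.6 ± 8.93 in late 2-cell embryos and 5.30 ± 6.72 in blastocysts (SD, same n). Its medians were 4.68, 10.2 and 1.55 FPKM. In WT late 2-cell embryos its mean (17.96 FPKM, up to 27.3) lay above that of Dab2 (16.8), while in R442Q it lay below (6.53 and 14.9), and the ranges of both genes overlapped in each genotype. Sox17 had medians of 0.660, 0 and 8.06 FPKM over the 3 stages, with a blastocyst range of 0.09 to 166. The blastocyst table was normalised apart from the early ones, so these levels are set side by side without a test. In blastocysts the order of mean levels after Dab2 was Sox17, Gata6, Col4a1, Pdgfra, Gata4, Lama1, Cubn, Foxa2 and Sox7, and all neighbours in that order overlapped in range. The place of Sox17 rests on 2 WT embryos at 113 and 166 FPKM: by median Gata6 (17.4) was above Sox17 (8.06), and in R442Q embryos the Sox17 mean (10.9) was below those of Gata6 (20.1) and Col4a1 (14.2).

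**Figure D1:**
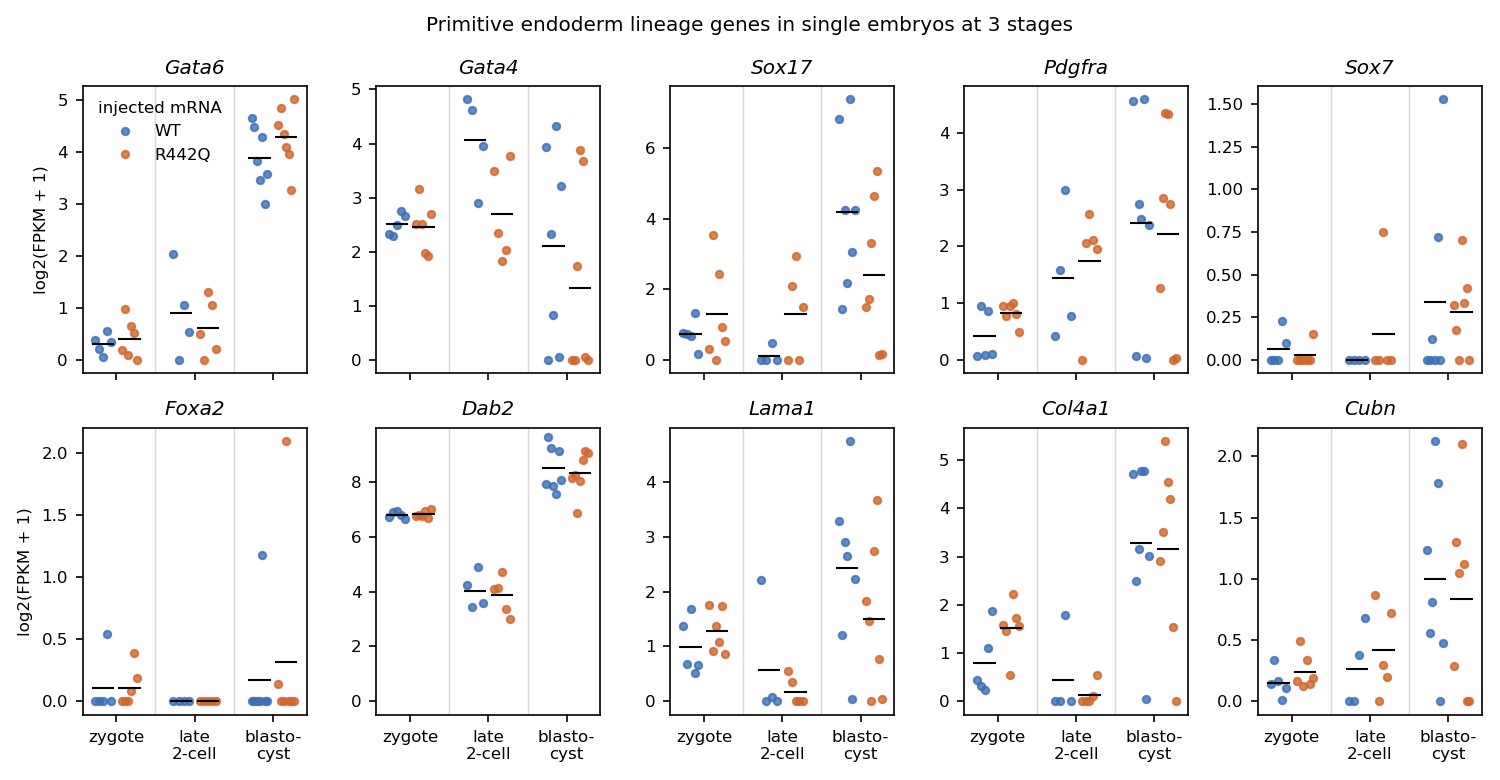
Level of each member in every embryo, as log2(FPKM + 1) on the y axis, by stage on the x axis; each point is 1 embryo, coloured by injected mRNA, and bars are group means. Gata6 is near the floor in zygotes and lies at 6.96 to 31.6 FPKM in blastocysts, while Sox7 and Foxa2 stay at or below 3.29 FPKM in every embryo.

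Between the zygote and the late 2-cell stage, whose counts were fitted together, 2 of the 8 members tested rose and 2 fell. Over all 16199 genes 75.1% were called at this step (41.8% higher, 33.3% lower), so a share of 4 in 8 is below the background. Dab2 fell by 2.82 ± 0.18 on the log2 scale (SE; edgeR's adjusted p 2.06e-12). Its counts were 1321 to 2377 in the 11 zygotes and 116 to 351 in the 9 late 2-cell embryos, with no overlap. Gata4 rose by 1.07 ± 0.32 (adjusted p 0.00491) and Pdgfra by 1.95 ± 0.62 (adjusted p 0.00707), each averaged over both genotypes. The Pdgfra call was lost when the replicate number was entered as a block. For Gata4 the mean went from 11.1 to 50.8 CPM in WT and from 11.9 to 13.8 CPM in R442Q embryos.

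Col4a1 fell by 2.11 ± 0.89 on the log2 scale (SE; edgeR's adjusted p 0.0364), from 9 to 51 counts in every zygote to 0 in 6 of the 9 late 2-cell embryos. The edgeR call was lost without WT zygote replicate 5 (adjusted p 0.0777) or any of WT late 2-cell replicates 1, 2 and 4 (adjusted p 0.0547, 0.0539 and 0.0639), and the log2 fold change was -4.88 without WT late 2-cell replicate 3 and -3.32 without R442Q replicate 5. Lama1, a laminin chain, went the same way, from 9 to 73 counts in every zygote to 0 in 5 of 9, but did not pass (log2 fold change -1.90 ± 0.87 SE, edgeR's adjusted p 0.0517). The Lama1 difference passed with DESeq2 (adjusted p 0.0389) and without any of several single embryos. Without WT late 2-cell replicate 1, the one with 43 counts, Lama1 was at -4.25 and passed (adjusted p 0.000411), and Sox17 passed without WT late 2-cell replicate 3 (-3.30, edgeR's adjusted p 0.0313). With all embryos Gata6, Sox17 and Cubn did not pass, and Sox7 and Foxa2 were too low to test. Foxa2 had 0 counts in all 9 late 2-cell embryos, where 3 counts correspond to 0.336 to 0.524 CPM (counts scaled to the library's total).

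The zygote comparison asks whether the genotypes already differed soon after injection. Of the 7 members tested, 1 was called, against 13.2% of all 12420 genes (6.3% higher, 6.92% lower). Pdgfra was that gene. Its counts were 2, 15, 3, 11 and 4 in WT zygotes 1 to 5 and 35.8, 31, 20, 37, 23 and 24 in R442Q zygotes 1 to 6. Pdgfra reached 10 counts in 2 of 5 WT and all 6 R442Q zygotes, so it entered the test through the group where it was higher. Every R442Q zygote lay above every WT zygote, as held for 9.39% of all genes tested in one direction or the other. Mean CPM was 0.858 ± 0.692 for WT (SD, n = 5) and 3.37 ± 1.28 for R442Q (SD, n = 6), a log2 fold change of 2.09 ± 0.54 (SE; edgeR's adjusted p 0.0172). The call was kept in all 11 fits that left out 1 zygote (adjusted p 0.0143 to 0.0442) and was lost in the model of both stages (log2 fold change 2.11, adjusted p 0.303).

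On the FPKM scale the same Pdgfra libraries overlapped, at 0.04, 0.94, 0.06, 0.82 and 0.07 in WT and 0.92, 0.70, 0.94, 1, 0.75 and 0.41 in R442Q zygotes. The authors' FPKM per CPM of Pdgfra varied 3.33-fold between the 8 zygotes with at least 10 counts. The egg list summed to 5355 ± 630 FPKM in WT and 4261 ± 534 in R442Q zygotes (SD, n = 5 and 6), and the cumulus and granulosa list to 25 to 31 and 20 to 25, both lower on average where Pdgfra was higher. In that list Amh was at 0 in all 11 zygotes and Ptx3 in 10, while Cyp19a1 and Nr5a2 made up most of the sum. The part of these differences in the Pdgfra result was not tested.

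The other 6 members tested in zygotes did not pass. Low members could enter the test through the group where they were higher, as Cubn did with 10 counts or more in 1 of 5 WT and all 6 R442Q zygotes. Dab2 had 163 to 197 CPM in the WT and 176 to 212 CPM in the R442Q zygotes, a log2 fold change of 0.28 ± 0.10 (SE; edgeR's adjusted p 0.0736, and 0.0326 with DESeq2). Sox17 had 2 to 18 counts in WT zygotes and 3, 100, 0, 57, 13 and 9 in R442Q zygotes 1 to 6. R442Q replicates 2 and 4 were high and the others overlapped WT, and Sox17 did not pass (log2 fold change 1.83 ± 0.95 SE, adjusted p 0.231).

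At the late 2-cell stage 0 of the 5 members tested were called by edgeR, against 4.18% of all 13883 genes (1.22% higher, 2.95% lower). Gata4 came nearest. Its counts were 501, 454, 117 and 224 in WT embryos 1 to 4 and 125, 54, 32, 42 and 227 in R442Q embryos 1 to 5. Scaled to CPM, the 3 highest embryos were WT, and the groups overlapped because WT replicate 3 lay below R442Q replicates 1 and 5. Mean CPM was 50.8 ± 28.1 for WT (SD, n = 4) and 13.8 ± 9.13 for R442Q (SD, n = 5), a log2 fold change of -1.73 ± 0.57 (SE; unadjusted p 0.00834, edgeR's adjusted p 0.0966). By DESeq2 the adjusted p was 0.0190, without the count filter 0.0278 and in the model of both stages 0.0130, so the call depends on the method. At an unadjusted p under 0.05 Gata4 was the 1 member, beside 2910 of all genes.

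The genotype difference of Gata4 was itself compared between the 2 early stages. In zygotes its counts were 67 to 151 in WT and 66 to 166 in R442Q embryos, a log2 fold change of 0.21 ± 0.29 (SE; edgeR's adjusted p 0.698). The late 2-cell difference was lower than the zygote difference by 2.05 on the log2 scale (SE 0.65, edgeR's adjusted p 0.0466 in the interaction test), and Gata4 was 1 of 8 members called, against 10.1% of 16199 genes (3.07% higher, 7.05% lower). The threshold was missed in 16 of the 20 fits without 1 embryo (up to adjusted p 0.148) and with another scaling of the libraries (adjusted p 0.0673). The fits that kept it left out WT zygote replicate 5, WT late 2-cell replicate 3, or R442Q late 2-cell replicates 1 or 5. With that scaling, of relative log expression, the median interaction of all genes moved from -0.16 to -0.01, and the genes called changed from 497 higher and 1142 lower to 707 higher and 917 lower.

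The summed egg and 2-cell transcripts are given beside these values. The egg list summed to 1869 ± 885 FPKM in WT and 4100 ± 1904 in R442Q late 2-cell embryos (SD, n = 4 and 5), and a list of 8 transcripts of 2-cell genome activation, such as Zscan4f, to 732 ± 631 and 2085 ± 1053. Both sums overlapped between genotypes, while total FPKM did not (712234 to 742246 in WT, 814376 to 976830 in R442Q), and their part in the Gata4 values was not tested. The remaining members were sparse. Sox17 had 7.95 counts in WT replicate 3 and 0 in the other WT embryos, and 29, 60.4 and 25 counts in R442Q replicates 2, 3 and 5 with 0 in replicates 1 and 4, and it was too low to test. Pdgfra, Gata6 and Cubn had wide errors, with log2 fold changes of 0.58 ± 1.07, -0.83 ± 1.36 and 0.81 ± 1.49 (SE), none of which passed.

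**Figure D2:**
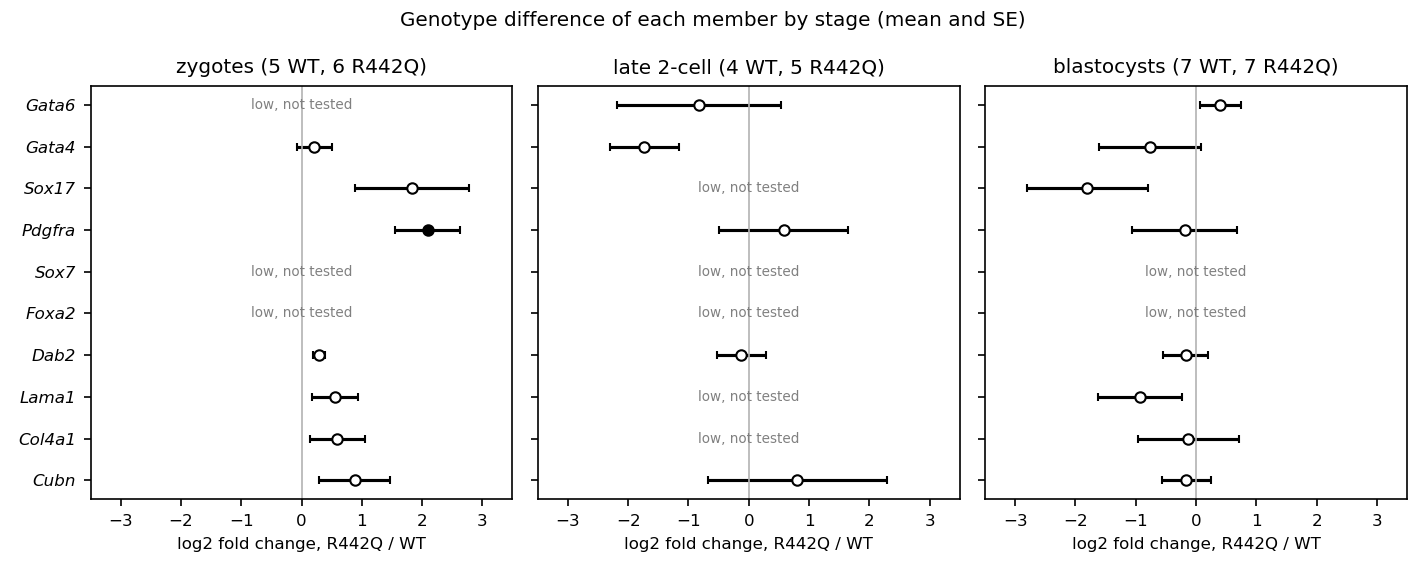
Log2 fold change of R442Q over WT on the x axis for each member on the y axis, with its SE, in zygotes, late 2-cell embryos and blastocysts; filled points passed an adjusted p of 0.05 and open points did not. Pdgfra in zygotes (2.09) is the only filled point, and Gata4 in late 2-cell embryos (-1.73) is the lowest open one at that stage.

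In blastocysts the members varied widely between embryos of the same genotype. In Gata6, the factor at the head of the lineage, WT embryos 1 to 7 had 24.1, 21.5, 13.2, 9.99, 18.5, 6.96 and 11 FPKM and R442Q embryos 1 to 7 had 22.1, 27.8, 19.4, 16.2, 14.6, 8.72 and 31.6. All 14 embryos thus held Gata6, with overlapping genotypes. Gata4 was at 14.2, 0, 4.02, 0.77, 19.0, 0.04 and 8.32 FPKM in WT and 0, 0, 2.33, 13.8, 11.7, 0.03 and 0 in R442Q embryos. Sox17 was at 113, 1.69, 18.1, 3.51, 166, 7.30 and 17.9 FPKM in WT and 1.80, 2.27, 8.81, 24.1, 39.3, 0.09 and 0.11 in R442Q embryos. The 2 embryos above 100 FPKM of Sox17 were both WT, and they were also the 2 with the most Gata4.

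Pdgfra, the receptor, was at 22.7, 0.05, 5.72, 4.62, 23.3, 0.02 and 4.19 FPKM in WT blastocysts 1 to 7 and 1.40, 6.21, 19.5, 19.2, 5.74, 0 and 0.02 in R442Q blastocysts 1 to 7. WT replicates 2 and 6 and R442Q replicates 6 and 7 thus had next to none. Col4a1 reached 41.3 FPKM in R442Q replicate 3 and was at 0.04 in WT replicate 6 and 0 in R442Q replicate 7. Lama1 ranged from 0.01 to 25.9 FPKM with a median of 3.12, and Cubn, the receptor for vitamin B12 bound to intrinsic factor, from 0 to 3.37 with a median of 0.91.

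Dab2 ranged from 114 to 800 FPKM and was the highest member in each of the 14 embryos. Its 4 highest embryos were WT replicates 2 and 3 (800 and 609) and R442Q replicate 6 and WT replicate 6 (564 and 558). In both replicates 6, Gata4, Pdgfra and Cubn were at 0.04 or below. Foxa2, a marker of later visceral endoderm, was at 3.29 FPKM in R442Q replicate 4 and 1.27 in WT replicate 5, and at most 0.10 in the other 12. Sox7 reached 1.89 FPKM in WT replicate 7. In whole embryos, fewer cells of a type and less RNA per cell cannot be told apart.

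**Figure D3:**
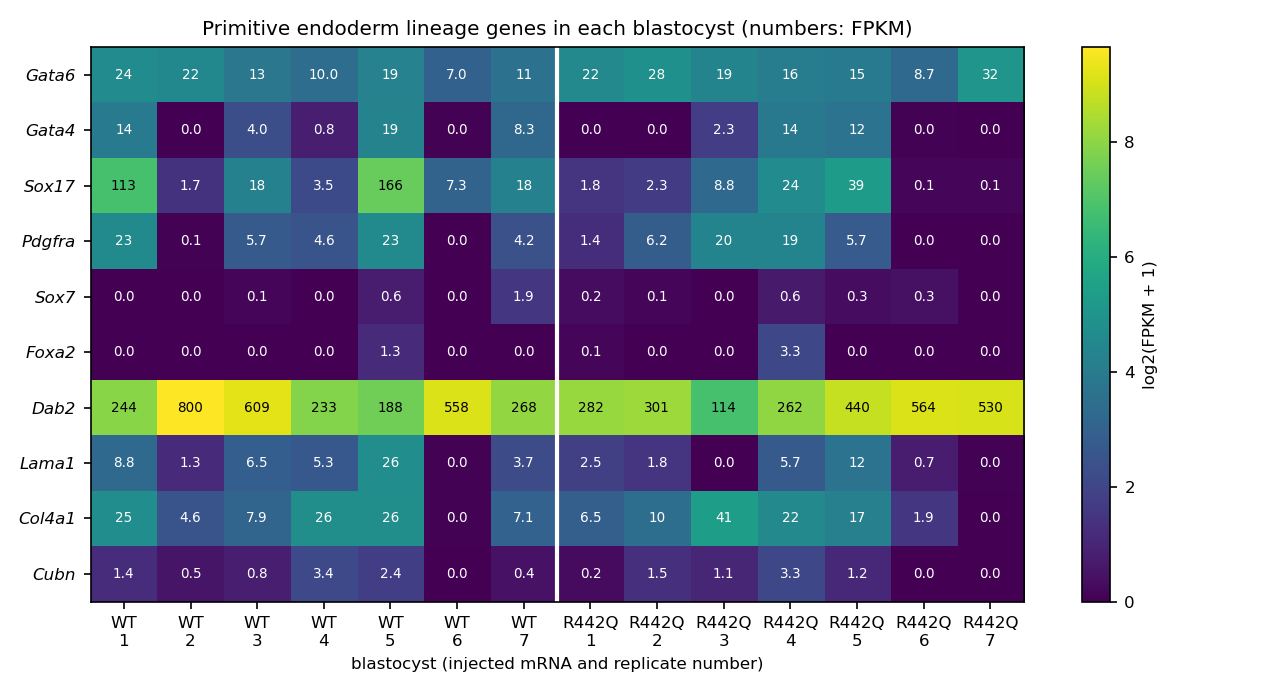
FPKM of each member (y axis) in each of the 14 blastocysts (x axis, by injected mRNA and replicate number), with colour on the scale of log2(FPKM + 1). WT replicates 1 and 5 hold the highest Sox17 (113 and 166 FPKM), and WT replicate 6 and R442Q replicates 6 and 7 are low in Gata4, Pdgfra and Cubn while their Dab2 is at 530 to 564 FPKM.

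Limma called 0 of the 8 members tested in blastocysts, against 0.00885% of all 11297 genes, which is 1 gene, and 0 members had an unadjusted p under 0.05, as 836 of all genes had. The TMM scaling called 3 genes and embryo weights called 5, again with no member. Sox17 had the largest log2 difference of the 8, with 46.8 ± 65.6 FPKM in WT against 10.9 ± 15.2 in R442Q blastocysts (SD, n = 7 each). On the log2(FPKM + 1) scale the difference was -1.80 ± 1.0003 (SE; limma's adjusted p 0.746), with a 95% interval of -3.91 to 0.31. Gata4 differed by -0.76 ± 0.84, Lama1 by -0.93 ± 0.69 and Gata6 by 0.40 ± 0.34 (SE), and none passed. The intervals of Gata6 (-0.31 to 1.12), Dab2 (-0.97 to 0.63) and Cubn (-1.01 to 0.69) were the narrowest of the 8. Those of Pdgfra (-2.02 to 1.65) and Col4a1 (-1.90 to 1.64) were wide on both sides of 0.

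The spread between blastocysts was large for part of the members. Within genotypes, the SD of log2(FPKM + 1) was 2.16 for Sox17, 1.85 for Pdgfra, 1.80 for Gata4 and 1.79 for Col4a1, against a median of 0.76 over all genes tested. Only 0.60% of the 11297 genes had a larger SD than Sox17, 1.52% a larger one than Pdgfra, 1.84% than Gata4 and 1.89% than Col4a1. Lama1 followed at 1.44 (6.40% larger). Gata6 lay below the median at 0.60, and Dab2 (0.80) and Cubn (0.77) lay near it, although only 9.28% of genes at a level like that of Dab2 spread more.

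Members varied together between embryos, with each genotype's mean subtracted before r was computed. Of the 28 pairs of the 8 tested members, 15 had a Pearson correlation past an adjusted p of 0.05 over the 14 blastocysts (two-sided permutation within genotypes, 100000 resamples, adjusted over the 28 pairs), 13 of them positive and 2 negative. The strongest was Gata4 with Sox17, at r = 0.935 (Spearman's rho 0.8499, permutation p 4e-05, adjusted 0.00056), with 0.929 in WT and 0.943 in R442Q embryos alone. Without the 2 embryos farthest from the median of Gata4 it was 0.911. Pdgfra went with Col4a1 (r = 0.887, rho 0.890, permutation p 3e-05, adjusted 0.00056), with Sox17 (r = 0.840, adjusted permutation p 0.00637), with Gata4 (r = 0.806, adjusted permutation p 0.00836) and with Cubn (r = 0.789, adjusted permutation p 0.00836).

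These values share the embryo and its library. The largest gap between neighbouring embryos took 14.2% to 32.2% of a member's range on the log2 scale. Pdgfra lay at 0 to 0.05 FPKM in 4 embryos, 1.40 to 6.21 in 6 and 19.2 to 23.3 in 4, and whether the embryos form separate clusters was not tested. As a background, r was computed for all 63805456 pairs of genes tested, here without subtracting genotype means, so the measure is not quite the same. Of these, 3.85% had an r as high as the weakest positive member pair called (0.646), against 46.4% of the member pairs. An r as low as -0.646 was held by 1.13%, against 7.14% of the member pairs. The median r was 0.56 over member pairs and 0.08 over all pairs. Without R442Q replicate 7 and WT replicate 6, the embryos with few genes, 10 pairs were called, without WT replicate 5 there were 9, and 7 were called in WT and 1 in R442Q embryos alone. In each of the 14 fits that left out 1 embryo 9 of the 15 pairs were called: Gata4 with Sox17, Pdgfra and Lama1, Pdgfra with Sox17, Dab2, Col4a1 and Cubn, and Col4a1 with Dab2 and Cubn.

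Gata6 and Dab2 stood outside this group. Gata6 was called with no other member, and its r over 14 embryos lay between -0.15 and 0.27. Without 1 embryo its r reached 0.528 with Col4a1 and 0.472 with Pdgfra. Its r with Gata4, Sox17, Pdgfra, Lama1 and Col4a1 was 0.43 to 0.57 in WT and -0.31 to 0.05 in R442Q embryos, a difference that was not tested. Dab2 was lower where Pdgfra was higher (r = -0.786, rho -0.727, adjusted permutation p 0.00836) and where Col4a1 was higher (r = -0.747, rho -0.811, adjusted permutation p 0.00868). All 7 of its r values with other members were below 0.

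**Figure D4:**
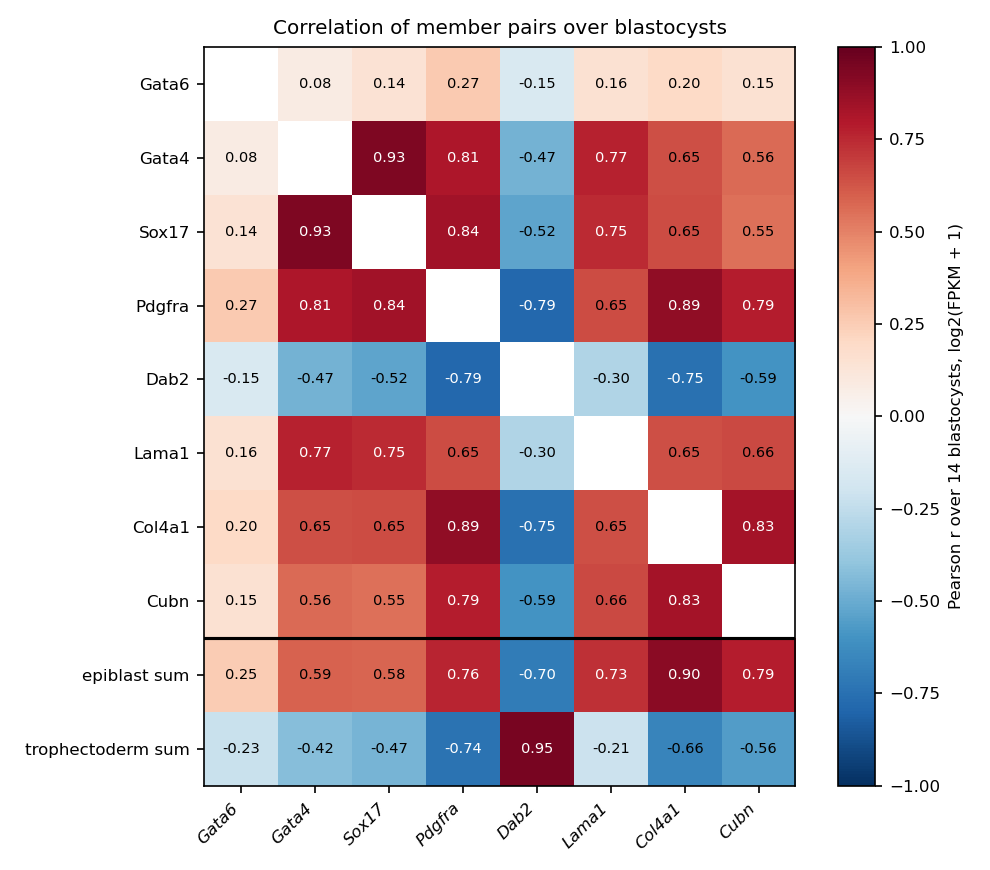
Pearson r over 14 blastocysts between log2(FPKM + 1) of each pair of members (both axes), and below the line between each member and the summed FPKM of the epiblast and trophectoderm lists. Genotype means were subtracted before r was computed. Gata4, Sox17, Pdgfra, Lama1, Col4a1 and Cubn form a block of r from 0.55 to 0.93, and Gata6 is pale throughout. Dab2 follows the trophectoderm sum, which is led by Krt18 and Krt8, at 0.95.

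The members were then set against the summed levels of the other 2 lineages and the number of genes detected, 24 relations chosen after the values were seen. The sums weigh abundant genes most. Krt18 and Krt8 led the trophectoderm list, at 4158 and 3126 FPKM on average, before Id2 at 1023. Utf1, Tdgf1 and Pou5f1 led the epiblast list (277, 144 and 120). By single gene, the highest r with any member ran from 0.22 (Tfap2c) and 0.23 (Cdx2) to 0.95 (Krt18) over 13 trophectoderm genes. It ran from 0.30 (Nanog) to 0.93 (Gdf3) over 12 epiblast genes. A relation to a sum is thus not one to each marker. Dab2 followed the trophectoderm sum (r = 0.948, rho 0.965, permutation p 2e-05, adjusted over the 24 relations 0.00048), with 0.977 in WT and 0.924 in R442Q embryos. Without the 2 embryos farthest from the median of the trophectoderm sum the r was 0.889. Col4a1 followed the epiblast sum (r = 0.900, adjusted permutation p 0.00276), as did Cubn (0.786, 0.0148), Pdgfra (0.759, 0.0175) and Lama1 (0.730, 0.0196). Gata4 (0.593) and Sox17 (0.582) did not pass (adjusted permutation p 0.0738 and 0.0785), and Gata6 had an r of 0.254.

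R442Q replicates 6 and 7 and WT replicate 6 had the lowest epiblast sums, 186 to 237 FPKM against 541 to 1583 in the other 11. Without the 2 embryos with few genes the relation of Col4a1 to the epiblast sum was at r = 0.759 and missed the threshold (adjusted permutation p 0.0516), those of Cubn (r = 0.695), Pdgfra (0.632) and Lama1 (0.532) also missed it with 12 embryos, and that of Dab2 to the trophectoderm sum was kept (r = 0.977, adjusted permutation p 0.00024). The negative relations of Pdgfra and Col4a1 to the trophectoderm sum passed with all embryos (r = -0.737 and -0.663) and without those 2 (-0.775 and -0.857). The number of genes detected also went with Col4a1 (r = 0.741, adjusted permutation p 0.0196) and Pdgfra (0.601, 0.0400), at 0.216 and 0.386 without the same 2 embryos. For Gata6 it was 0.148 over 14 embryos and 0.800 without them (adjusted permutation p 0.0186), and its part in the other relations was not tested. The endoderm factors were not a copy of the epiblast sum in each embryo. R442Q replicate 1 had an epiblast sum of 1019 FPKM with Gata4 at 0 and Sox17 at 1.80, while WT replicate 1, at 1212, had 14.2 and 113. WT replicate 4 had the highest epiblast sum, 1583, with Gata4 at 0.77 and Sox17 at 3.51.

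**Figure D5:**
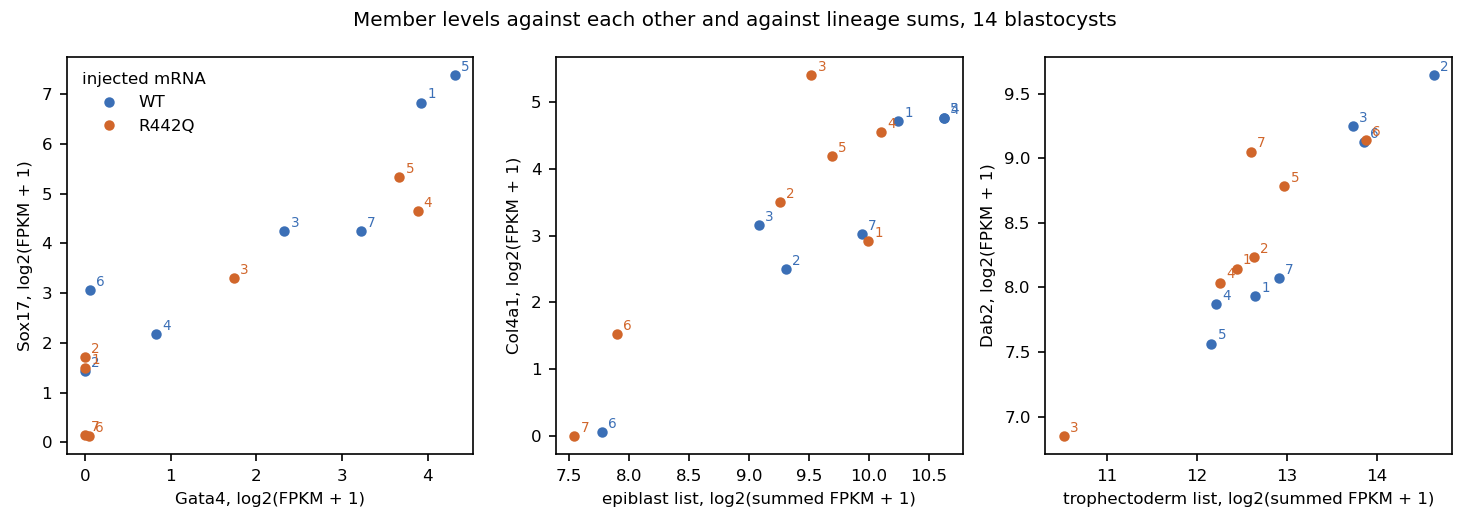
Left, Sox17 against Gata4; centre, Col4a1 against the summed FPKM of the epiblast list; right, Dab2 against the summed FPKM of the trophectoderm list, all as log2(value + 1), with 1 numbered point per blastocyst coloured by injected mRNA. The r values of 0.935, 0.900 and 0.948 were computed after each genotype's mean was subtracted, while the points have the means left in. R442Q replicate 3 is lowest in both Dab2 (114 FPKM) and the trophectoderm sum (1470), and WT replicate 2 is highest in both (800 and 25335).

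Genes outside the members were ranked by their mean r with the 8 tested members, after removal of genotype means. The 5 highest of 11289 were Il6st, a receptor chain for cytokines of the IL-6 family (0.58), Zfp975 (0.57), Cnot10, a subunit of the CCR4-NOT deadenylase (0.57), Creb3l2, a transcription factor of the secretory pathway (0.57), and B3gnt7 (0.56), as a description over 14 embryos. Among 16 tested partners of the members, the median was 0.34, against 0.14 over all genes. The highest were Sparc, a collagen-binding matrix protein (0.53), Serpinh1, the collagen chaperone (0.51), and Lamc1, the laminin gamma chain (0.50), with Col4a2 at 0.49. Lamb1 and Fn1 were each at 0.48, the nidogens Nid1 (0.15) and Nid2 (0.16) lay near the level of all genes, and Lrp2 (-0.35), Lrpap1 (-0.23) and Dag1 (-0.10) were below 0. Tfpi, a coagulation inhibitor made by parietal endoderm, had 0.53, although the 6 tested genes of its list of later endoderm had a median of 0.04. Epiblast genes had a median of 0.43 (12 tested), FGF and PDGF signalling genes 0.27 (14) and trophectoderm genes -0.13 (13).

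The signalling genes around the lineage were read from a list of 22. In blastocysts 14 were tested and 0 were called, with a median log2 fold change of -0.54 against -0.10 over all genes. The most abundant were Map2k2 (60.3 ± 21.7 FPKM), Pdgfa, a ligand of Pdgfra (41.9 ± 15.7), and Map2k1 (38.7 ± 15.8; SD, n = 14 each). Pdgfa was thus present at 14.99 FPKM or more in every blastocyst, also where Pdgfra was at or near 0. Fgf4, the ligand for the endoderm decision, was at 3.72 ± 4.12 FPKM (SD, n = 14), at 0 in 3 embryos, and differed by -1.61 ± 0.55 (SE), which did not pass (unadjusted p 0.00933, limma's adjusted p 0.388).

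In zygotes 18 of the 22 signalling genes were tested, of which 2 rose and 1 fell, a share near the 13.2% of all genes called. Dusp6, a phosphatase induced by FGF signalling, rose by 2.38 ± 0.59 on the log2 scale (SE; edgeR's adjusted p 0.0133), the kinase Map2k1 rose by 0.52 ± 0.11 (adjusted p 0.00541), and its partner Map2k2 fell by 0.75 ± 0.24 (adjusted p 0.0474). The call of Map2k2 was lost in 9 of the 11 fits without 1 zygote (adjusted p up to 0.141). In late 2-cell embryos 1 of 19 was called, against 4.18% of all genes, namely Map2k2, which fell by 1.86 ± 0.42 (SE; edgeR's adjusted p 0.0243), a call lost in 2 of the 9 fits without 1 embryo (adjusted p up to 0.116). The genotype difference was lower in late 2-cell embryos than in zygotes for 4 of 20, namely Map2k1, Spry4, Fgf4 and Spry2 (edgeR's adjusted p 0.00442 to 0.0462), and higher for 0, against 7.05% and 3.07% of all genes. Of these, Map2k1 was called in all 20 fits without 1 embryo, while the call was lost in 10 of 20 for Spry4, 4 for Fgf4 and 18 for Spry2 (adjusted p up to 0.119). Fgf4 was listed at 0 in all 5 WT zygotes and Spry2 at 0.14 FPKM or less, and neither was high enough to test in zygotes. In late 2-cell embryos their genotypes had the same means, 25.2 FPKM in both for Fgf4 and 4.36 in both for Spry2, while the zygote values lie near 0. From zygote to late 2-cell 10 of the 20 rose, such as Etv5 by 2.98 ± 0.28, and 10 fell, such as Map2k1 by 2.92 ± 0.17 and Spry4 by 2.02 ± 0.17 (SE), against 41.8% and 33.3% of all genes.

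Of the 20 partners of the members, 14 were tested in zygotes, where Lamb1, a laminin chain (-0.63 ± 0.15 SE, edgeR's adjusted p 0.00958), and the integrin Itga6 (-0.63 ± 0.17, adjusted p 0.0194, lost in 2 of the 11 fits without 1 zygote, up to 0.0581) were lower in R442Q and 0 were higher, against 6.92% and 6.3% of all genes. None of 16 was called in late 2-cell embryos by edgeR and none of 16 in blastocysts by limma. From zygote to late 2-cell 7 of 18 rose and 3 fell, against 41.8% and 33.3% of all genes. The largest of the named rises were those of Amn, the membrane anchor of cubilin (6.10 ± 0.68), and Nid2, a basement membrane nidogen (4.97 ± 0.54; SE). Cubn itself did not pass at that step (log2 fold change 1.04 ± 0.79 SE, edgeR's adjusted p 0.235). The receptor chaperone Lrpap1 rose by 2.07 ± 0.19 and was the most abundant partner in blastocysts, at 1184 ± 340 FPKM, before Sparc (175 ± 115) and P4ha2 (36.7 ± 26.6; SD, n = 14).

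Markers of later endoderm were mixed. Ttr was at 0 in all 14 blastocysts and Afp in 12, both made by visceral endoderm, while Apoe (780 ± 403 FPKM), Apoa1 (79.7 ± 56.1) and Rhox5 (67.3 ± 81.2; SD, n = 14) led the list. Of its 12 genes, 6 were tested in blastocysts and 0 called (0.00885% of all genes), 1 of 2 was lower in R442Q zygotes (Plat, -0.39 ± 0.13 SE, edgeR's adjusted p 0.0471, lost in 9 of the 11 fits without 1 zygote, up to 0.117) beside 6.92% of all genes, and 0 of 5 were called in late 2-cell embryos beside 4.18%. Cited1 (6.77 ± 0.45), Apoe (2.57 ± 0.27) and Tfpi (2.46 ± 0.56) were among the 4 of 6 that rose from zygote to late 2-cell, and Plat was the 1 that fell, by 2.80 ± 0.32 (SE, log2 scale), against 41.8% and 33.3% of all genes.

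The lists of other cell types gave the following counts, beside 13.2% of all genes called in zygotes, 4.18% in late 2-cell embryos, 10.1% in the interaction and 0.00885% in blastocysts. In zygotes edgeR called Bmp4 higher and Esrrb lower among 6 epiblast genes, Krt18 higher among 8 trophectoderm genes, 0 of 4 cumulus and granulosa genes, Zp3 and Zp1 lower among 8 egg genes, and 6 of 8 of the 2-cell genes higher, led by Zscan4f (log2 fold change 4.65 ± 0.87 SE, adjusted p 0.00248). Bmp4 (2.29 FPKM in R442Q and 0.668 in WT zygotes on average) was high enough to test in only 5 of the 11 fits without 1 zygote and lost its call in 3 of them. In late 2-cell embryos it called Id2 higher among 12 trophectoderm genes (a call lost in 2 of the 9 fits without 1 embryo, adjusted p up to 0.0718) and 0 of 11 epiblast, 3 cumulus, 7 egg and 8 2-cell genes. In the interaction 4 of 8 egg genes were higher, of which Oosp1 was called in all 20 fits without 1 embryo, while Zp1 lost its call in 10, Zp2 in 6 and Nlrp5 in 5, and 0 epiblast, trophectoderm, cumulus and 2-cell genes were called. In blastocysts 0 of 12 epiblast, 13 trophectoderm and 1 cumulus gene were called by limma, and none of the egg or 2-cell genes was high enough to test. From zygote to late 2-cell, where 41.8% of all genes rose and 33.3% fell, 7 of 11 epiblast genes rose and 2 fell, 10 of 13 trophectoderm genes rose and 1 fell, and 2 of 5 cumulus genes rose and 3 fell. All 8 of the 2-cell genes rose, and 0 of 8 egg genes rose and 6 fell.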

How the data were processed

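Single embryos were sequenced after SMART-seq2 amplification and Tn5 fragmentation (Nextera libraries, HiSeq X-10), per the labels' protocols. RSEM and mm10 are named in the submitters' processing notes, without versions. For zygotes and late 2-cell embryos the authors deposited estimated counts per gene symbol, which were rounded for tests, and CPM was computed from them. FPKM tables, normalised by the authors to length and library size, were deposited for all 3 stages, and blastocysts have FPKM only.

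Counts were tested in R 4.3.3 with edgeR 4.0.16 (filterByExpr with minimum count 10, TMM scaling, quasi-likelihood test), each stage alone, and in a model of 4 groups for the change from zygote to late 2-cell, averaged over genotypes, and for the difference of genotype effects (interaction). Blastocysts were tested with limma 3.58.1 on log2(FPKM + 1) with a variance trend, on genes that reached an FPKM of 1 in 7 or more embryos; fold changes on this scale understate those of low genes. Genes were called at 0.05 after Benjamini-Hochberg adjustment over all genes tested. The SE printed with edgeR's fold changes was derived from its test, as the absolute log2 fold change divided by the square root of F. It is an approximation, and a poor one for fold changes near 0. Correlations over blastocysts were computed after each genotype's mean was subtracted, and their permutations shuffled embryos within genotypes. The background over all pairs of genes left the genotype means in. Alternatives were DESeq2 1.42.0, other scalings, filters and pseudocounts (0.1), embryo weights, a replicate block, and leaving out each embryo. Tests were checked on simulated data.

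The members and the gene lists were chosen with earlier results of these data known. Genes were named by a rule: Chek1, the members, in each other list up to 4 genes past the threshold by smallest p in each comparison and the 3 most abundant in blastocysts, and the 5 genes most like the members; other genes named were chosen after their values were seen. Positions, exons and shared 50-base stretches come from GENCODE M21 (GRCm38) and upstream sequences from RefSeq (GRCm38.p6). Counts carry amplification noise beyond counting error, since no molecular identifiers were used, and a floor of 3 counts covers counting error only. No 2 libraries held identical values. Samples with the same replicate number did not deviate together, so they were not paired.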

Additional observations from a re-analysis of the deposited data

Results flagged for a closer look

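Of 57 combinations of a member and a group that could be examined, 10 held an embryo far from the others of its group by Dixon's rule at 95%, and chance alone flags about 1 in 20. Most are sparse genes. Sox7 was at 0.354 CPM in R442Q zygote replicate 6 and at 2.14 CPM in R442Q late 2-cell replicate 3, with 0 in the other embryos of each group. Foxa2 was at 0.270 CPM in WT zygote replicate 4 and, in blastocysts, at 3.29 FPKM in R442Q replicate 4 and 1.27 FPKM in WT replicate 5. In late 2-cell embryos Sox17 (1.23 CPM) and Col4a1 (3.09 CPM) stood apart in WT replicate 3 and Lama1 (6.96 CPM) in WT replicate 1, while the other WT embryos were at or near 0.

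Low embryos were R442Q zygote replicate 3 for Col4a1 (1.48 CPM) and R442Q late 2-cell replicate 1 for Pdgfra, with 0 counts where the other R442Q embryos had 45 to 114. A last value stood out because 2 stages differed: the genotype effect on Gata4 was lower in late 2-cell embryos than in zygotes by a log2 difference of -2.05 (SE 0.65, edgeR's adjusted p 0.0466).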

How the results depend on the processing

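Of the values of single genes and pairs under settings other than leaving out 1 embryo, 468 kept their direction and call, 58 lost a call, 7 gained one and 8 reversed. The cause of the changes was not tested. In the zygote comparison 1643 genes were called, and 270 in the model of both stages. In late 2-cell embryos the 580 genes called became 1683 with DESeq2, 889 without the count filter and 2507 in the model of both stages. In blastocysts the 1 gene called became 3 with TMM scaling, 5 with embryo weights, 0 without the filter and 0 without both embryos with few genes, a setting chosen after seeing the data. The 15 member pairs called became 7 in WT and 1 in R442Q embryos alone, where only 7 embryos enter. Calls in late 2-cell embryos split into 170 higher and 410 lower, and into 740 and 943 with DESeq2, and those in zygotes into 783 and 860, and into 411 and 1231 with limma on FPKM. As a block, the replicate number, which does not pair the embryos, left 1217 genes called in zygotes, 58 in late 2-cell embryos, 0 in blastocysts, 11709 between the stages and 1085 in the interaction, with Gata4 in the interaction at -2.12 (adjusted p 0.0648) and Pdgfra between the stages at 1.45 (adjusted p 0.0917). Without 1 embryo the counts ranged from 1125 to 1718 in zygotes, 142 to 891 in late 2-cell embryos, 0 to 30 in blastocysts, 11876 to 12446 between the stages, 1089 to 2311 in the interaction and 9 to 18 for the member pairs.

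Reversed values were small or rested on sparse counts. Gata4 in zygotes was -0.0444 with limma on FPKM, and Dab2 in late 2-cell embryos was 0.12 with the block. Chek1 was near 0 in late 2-cell embryos (-0.00157 with DESeq2, -0.00159 with RLE, -0.0592 without the filter, -0.0374 with the block and -0.0427 in the model of both stages) and in blastocysts (0.00572 with TMM scaling). Fits without 1 embryo crossed 0 as follows. They ranged from -0.016 to 0.425 for Gata4 in zygotes. In late 2-cell embryos they ranged from -1.26 to 0.266 for Gata6, -0.28 to 0.272 for Dab2 and -0.176 to 0.211 for Chek1. In the interaction the ranges were -0.648 to 0.036 for Dab2, -1.82 to 3.63 for Lama1, -2.85 to 4.91 for Col4a1 and -0.638 to 1.0016 for Cubn. In blastocysts they were -0.583 to 0.186 for Pdgfra, -0.328 to 0.0724 for Dab2, -0.665 to 0.399 for Col4a1 and -0.251 to 0.13 for Chek1. Blastocyst depth in counts is unknown, and members with few counts early (Sox7, Foxa2) could not be tested.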
